A study of Mus musculus with 12 samples.

Results

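The comparison of uninjured p300-deleted mice (KO) with uninjured control mice (Con) is described here across genes and pathways. It was defined by the sample labels alone, which give 3 KO and 3 Con libraries, 6 of the 12 libraries of the series, and no measured value chose them. All 6 mice received phosphate-buffered saline (PBS) into the trachea. The other 6 libraries, from mice given bleomycin at 4 mg/kg, are used only in the shared statistical fit and in the last comparison. KO mice carried p300 alleles with loxP sites around exon 9 and Spc-CreERT2, a tamoxifen-inducible Cre driven by the promoter of the surfactant protein C gene, so that deletion is limited to cells with an active Sftpc promoter, chiefly alveolar type II (ATII) cells. Tamoxifen was given at 10 mg/kg to mice of 8 weeks before the PBS. Con is described in the sample titles as wild type, in the characteristics as a negative control, in the study's results as Spc-p300 f/f, and in its sorting methods as C57BL/6. The study's supplement sets vehicle against tamoxifen in Spc-p300 f/f mice for a PCR on sorted ATII cells, and the treatment protocol in the labels is the same for all groups. Under these descriptions an effect of tamoxifen, of the recombinase or of the strain and an effect of the deletion cannot be told apart. Each library came from sorted CD74+ EpCAM+ cells of 1 mouse, and this Cre leaves p300 intact in the other cell types of the lung.

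p300 is a histone acetyltransferase and transcriptional coactivator, encoded by Ep300. It is recruited to enhancers and promoters by sequence-bound factors such as CREB, HIF-1, p53, NF-kB and the C/EBP proteins, and it acetylates histone tails there, among them lysine 27 of histone H3. CBP, encoded by Crebbp, is its close paralog and shares many of its partners. ATII cells are the cuboidal epithelial cells of the alveolus. They make and secrete surfactant, store it in lamellar bodies, and give rise to the flat type I cells after damage. Resident alveolar macrophages lie on the same surface and recycle surfactant lipid.

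Ep300 lies on chromosome 15 (chr15:81585351-81652077, plus strand, GRCm38/mm10), and its main transcript has 31 exons. The exon that the loxP sites flank is shown because it decides what the counts can say about the deletion. It is the coding exon 9, chr15:81620000-81620117, plus strand, with every base in lower case since no motif is marked.

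Ep300 exon 9: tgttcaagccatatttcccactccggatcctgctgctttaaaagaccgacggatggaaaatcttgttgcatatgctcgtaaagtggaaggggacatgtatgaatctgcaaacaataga

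These 118 bases leave a remainder of 1 when divided by 3. Joining exon 8 to exon 10 therefore shifts the reading frame, and the predicted protein ends after 594 codons, of which 7 are read after the junction, where the intact one has 2412. The exon ends 6453 bases of mRNA before the 3′ end of the transcript. The kit used (QuantSeq) reads close to the poly(A) tail, so its counts on Ep300 lie outside the deleted exon. They do not show directly whether the exon was removed, and whether its loss changes the level of the transcript was not tested. Ep300 had 1056, 1341 and 541 counts in Con and 1434, 1118 and 1113 counts in KO. After normalisation this was 109 ± 53.5 CPM (the count relative to the normalised library size) in Con and 142.9 ± 46.4 CPM in KO (SD, n = 3 each). The groups overlapped, and Con 3 was the lowest library. The log2 fold change was 0.39 (standard error 0.69), with an adjusted p of 1.0 in edgeR's quasi-likelihood test with Benjamini-Hochberg adjustment. Crebbp stood at 155.6, 212 and 158.4 CPM in Con and 162.2, 185.3 and 206.8 CPM in KO, a log2 fold change of 0.08 (standard error 0.45). The paralog did not pass the threshold either. The study reports its own checks of the p300 deletion, by PCR in primary ATII cells and by co-immunofluorescence in lung. In the counts used here, the genotype of each library rests on its label.

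The 6 libraries held between 7281246 and 10807871 counts and between 8790 and 13145 genes with a count, of 23238 symbols. KO 3 had the most counts and the fewest genes, and the first principal component (37.8% of the variance) placed it apart from the other 5. KO 2 had the highest share of Rn45s, the ribosomal RNA precursor, at 21.59% of its counts, against 2.04% to 10.63% in the others. Spearman coefficients across genes, which are not independent replicates, were 0.797 to 0.884 within Con and 0.711 to 0.8 within KO. The closest pair of all was Con 1 and KO 1, at 0.898. Of the 13054 genes tested, 34.6% were at 0 in KO 3, against 7.52% in Con 2. The main results that rest on KO 2 or KO 3 are given with and without that library.

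The markers of the sorted cell type were present but were not the most abundant ones. Sftpc, the gene of surfactant protein C, stood at 220.9, 618.8 and 129.4 CPM in Con and 142.5, 13.34 and 66.76 CPM in KO. Epcam, a sort antigen, stood at 191.1, 83.63 and 110.4 CPM in Con and 189.2, 3.295 and 69.09 CPM in KO. Both were lowest in KO 2, and the groups overlapped. The 5 defining ATII markers, Sftpc, Sftpa1, Sftpb, Abca3 and Lamp3, summed to 417.5 to 1606 CPM in Con and 80.22 to 455.7 CPM in KO. The 6 defining macrophage markers, Marco, Ear1, Chil3, Csf1r, Adgre1 and Cd68, summed to 8529 to 17750 CPM in Con and 9155 to 30930 CPM in KO. Macrophage transcripts thus exceeded ATII transcripts in each of the 6 libraries labelled as ATII cells. None of the 5 ATII markers and none of the 6 macrophage markers was at 0 in any library. In bulk samples, fewer cells of a type and less RNA per cell cannot be told apart.

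Marker lists of other cells also differed between the libraries. The 15 endothelial genes summed to 988.4, 1866 and 1587 CPM in Con and to 876.1, 173.5 and 218.4 CPM in KO, so that all 3 KO libraries lay below all 3 Con libraries, and KO 1 only just. Pecam1, an endothelial adhesion molecule, was at 0 in KO 3. The 18 alveolar macrophage genes summed to 18140 to 29120 CPM in Con and 14440 to 44200 CPM in KO, with KO 2 the lowest and KO 3 the highest. The 18 general macrophage genes summed to 6822 to 8415 CPM in Con and 7109 to 25120 CPM in KO, with KO 2 the highest. Airway genes (club and ciliated cells) summed to 269.5 to 376.9 CPM in Con and 263.8, 50.41 and 77.5 CPM in KO. The neutrophil list was highest in Con 3, at 3824 CPM against 168.2 to 1083 CPM elsewhere. Cd3e, which defines T cells, was at 0 in Con 3, KO 1 and KO 3.

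**Figure D1:**
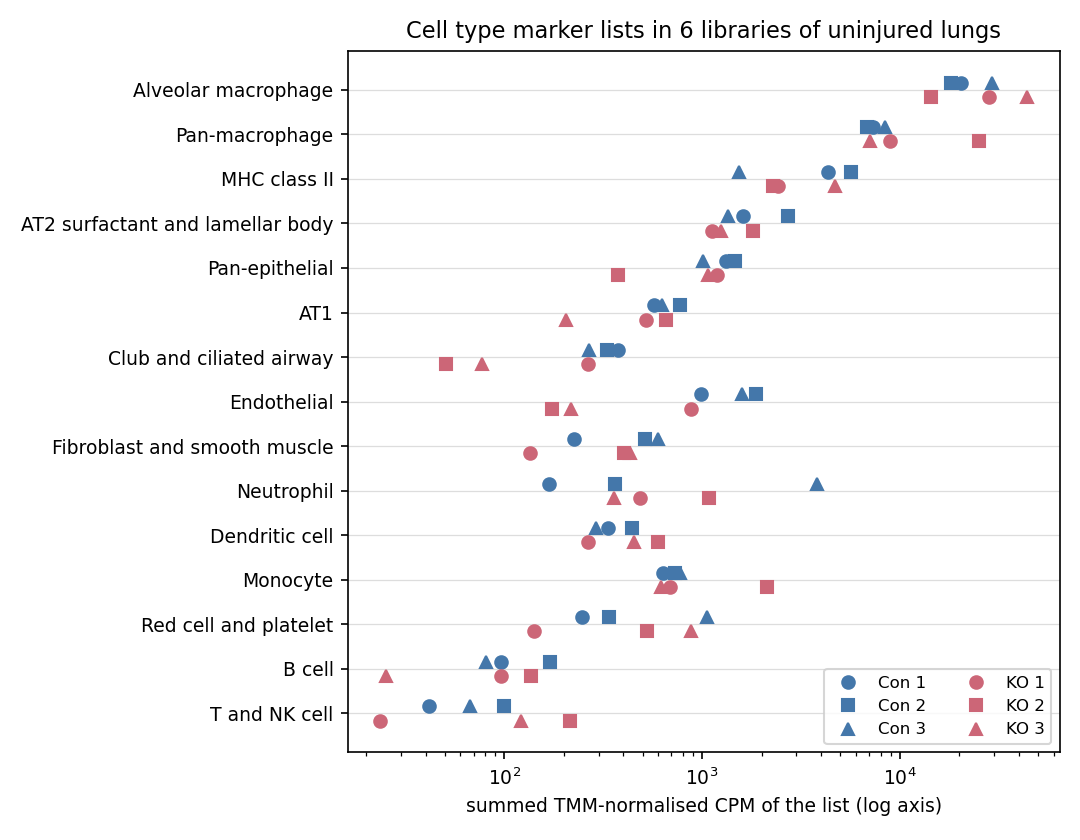
Summed TMM-normalised CPM of cell type marker lists (horizontal, log axis) in the 6 libraries, with 1 point per library, Con and KO in different colours. The endothelial points of KO 2 and KO 3 lie at 173.5 and 218.4 CPM, below the Con range of 988.4 to 1866 CPM, and the largest sum in each library is a macrophage list, the general one in KO 2 and the alveolar one in the other 5.

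The baseline comparison asked which genes differ when p300 is deleted without injury. A gene was counted as higher or lower in KO at a fold over 1.5 and an unadjusted p under 0.05 in edgeR's quasi-likelihood test, the threshold the study names. By this rule 70 of the 13054 tested genes were higher (0.536%) and 118 were lower (0.904%). In simulated counts, 5.11% of the unchanged genes passed the same rule. Of the genes set to differ there, 36% were recovered at 4-fold and 74% at 16-fold. Whether the simulated counts match the zeros and the spread of these libraries was not tested. The numbers of higher and lower genes given here do not tell how many genes changed. The 188 genes were all those with an unadjusted p under 0.05 in edgeR, and 0 genes had an adjusted p under 0.05 in edgeR or in limma-voom. DESeq2 gave 80 such genes, 44 higher and 36 lower, of which 53 had over 90% of their summed CPM in 1 library and 24 were also past the edgeR threshold. Without KO 3 the edgeR counts were 84 higher and 30 lower, without KO 2 they were 30 higher and 58 lower, and without KO 1 they were 81 higher and 365 lower. The same threshold in limma-voom gave 53 higher and 341 lower genes.

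Many of these genes were carried by few libraries. Of the 70 higher genes, 49 had their highest value in KO 2, 20 in KO 3 and 1 in KO 1, and 26 had over 90% of their summed CPM in 1 library. Of the 118 lower genes, 98 were at 0 counts in all 3 KO libraries, and 59 had their highest value in Con 3. The 3 KO values lay all above the 3 Con values for 426 tested genes (3.26%) and all below them for 760 (5.82%). When only library size was used for scaling, these counts were 286 and 987. Among the genes past the threshold the groups did not overlap for 19 higher and 59 lower genes. None of the 10 most abundant genes passed, and their log2 fold changes ran from -0.54 for Ccl6 to 1.23 for Rn45s.

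Named genes among them were required to have groups that do not overlap, a mean of at least 10 CPM, and the same direction with each library left out, which exactly 12 higher and 12 lower genes met. The higher ones fall into genes of macrophages and lysosomes, genes of lipid, redox and membrane traffic, and genes of the nucleus and of other tissues. Msr1 (chr8:39581685-39642673), the macrophage scavenger receptor 1, had 9.547, 7.465 and 13.89 CPM in Con and 22.47, 347.1 and 85.33 CPM in KO. Ctsl (chr13:64359337-64370890), the lysosomal protease cathepsin L, had 169.7, 158.1 and 161.2 CPM in Con and 266.4, 1363 and 250.9 CPM in KO. Igf1 (chr10:87858265-87937042), a growth factor that lung macrophages can secrete, had 23.68, 20.01 and 21.72 CPM in Con and 27.03, 449.4 and 112 CPM in KO. KO 2 was the highest library for these 3 genes, and the other 2 KO libraries lay above Con by a smaller margin. Their log2 fold changes were 3.88 (standard error 1.7), 1.94 (0.83) and 3.17 (0.96), and without KO 2 they were 2.42, 0.7 and 1.71, no longer past the threshold. The general macrophage list, summed above, was highest in KO 2 as well, and its part in these values was not tested.

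Fabp5 (chr3:10012548-10016607), a carrier of fatty acids that is a member of the ATII list and is also made by macrophages, had 135.8, 187.3 and 275.5 CPM in Con and 299.4, 1380 and 354.7 CPM in KO. Slc7a11 (chr3:49892526-50443614), the cystine transporter that feeds glutathione synthesis, had 11.71, 4.003 and 3.165 CPM in Con and 36.89, 345.1 and 40.96 CPM in KO. Esd (chr14:74732297-74750765), an esterase that hydrolyses S-formylglutathione, had 53.47, 71.29 and 57.5 CPM in Con and 139, 651.2 and 126.2 CPM in KO. As the selection required, all 3 KO libraries stood above Con for each of them, with KO 2 again the highest. The log2 fold changes were 1.76 (standard error 0.8) for Fabp5, 4.49 (1.74) for Slc7a11 and 2.33 (0.76) for Esd, and without KO 2 they were 0.74, 2.65 and 1.16, none past the threshold. Ninj1 (chr13:49187485-49196244), a surface protein that acts in plasma membrane rupture, ranged from 0.5092 to 7.474 CPM in Con and from 9.157 to 97.03 CPM in KO. Its log2 fold change was 3.75 (standard error 1.48), and 1.71 without KO 2, also short of the threshold.

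Surf4 and Inpp5d were the most even across the KO libraries. Surf4 (chr2:26920040-26933928), a cargo receptor between endoplasmic reticulum and Golgi, had 252.3, 175 and 117.4 CPM in Con and 316.6, 411.7 and 412.6 CPM in KO. It was 2.094-fold higher in mean (log2 fold change 1.07, standard error 0.48). Inpp5d (chr1:87620312-87720507), the inositol phosphatase SHIP1 of blood cells, had 39.46, 63.4 and 47.48 CPM in Con and 90, 129.2 and 155.3 CPM in KO. It was 2.49-fold higher (log2 fold change 1.32, standard error 0.6). Both kept their direction with any library left out, as the selection required, but Inpp5d passed the threshold in 0 and Surf4 in 1 of these 6 fits.

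Gtf2h3, Smim4 and Ttr stood highest in KO 3. Gtf2h3 (chr5:124579140-124597680), a subunit of the general transcription and repair factor TFIIH, had 0, 1 and 0 counts in Con and 100, 146 and 718 counts in KO, and it passed the threshold in all 6 fits with a library left out. Smim4 (chr14:31088132-31128956), a small mitochondrial membrane protein, had 5.728, 12.22 and 2.638 CPM in Con and 33.6, 16.31 and 188.8 CPM in KO, a log2 fold change of 3.53 (standard error 1.4) that was 1.86 without KO 3 and then short of the threshold. Ttr (chr18:20665280-20674321), the thyroid hormone carrier transthyretin of liver and choroid plexus, had 1, 1 and 2 counts in Con against 4, 46 and 3954 in KO. For Ttr, KO 1 was close to the floor of 3 counts taken for detection, and without KO 3 the gene did not pass.

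The 12 lower genes held vascular and membrane genes. Adamts1 (chr16:85793827-85803113), a secreted metalloproteinase that cleaves versican, had the smallest p of all tested genes in edgeR (unadjusted p = 0.000918, adjusted p = 1.0). It had 114, 459 and 576 counts in Con and 0, 5 and 0 counts in KO. Podxl (chr6:31519488-31563981), a sialomucin of endothelium and podocytes, had 136.7, 223 and 197.9 CPM in Con and 84.38, 28.66 and 21.31 CPM in KO. Ece1 (chr4:137862237-137965229), which cleaves big endothelin, had 107.6, 207.7 and 270 CPM in Con and 90.21, 17.46 and 11.9 CPM in KO. KO 1 was the highest KO library for both Podxl and Ece1, and close to the lowest Con library for Ece1. Lyve1 (chr7:110850607-110863239), the hyaluronan receptor of lymphatic endothelium and some macrophages, had 37.55, 88.06 and 200.3 CPM in Con and 25.65, 6.26 and 0 CPM in KO. Ptrf, which builds caveolae together with caveolins, had 98.91, 130.8 and 70.78 CPM in Con and 46.54, 39.7 and 13.65 CPM in KO.

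The log2 fold changes were -2.05 for Podxl (standard error 0.88), -2.29 for Ece1 (0.86), -3.35 for Lyve1 (1.38) and -1.59 for Ptrf (0.67). Adamts1 passed in all 6 fits with a library left out, Lyve1 in 4, Ece1 in 3, and Podxl and Ptrf in 2. Without KO 2 none of these 4 other genes passed, at -1.79, -1.92, -3.07 and -1.71 in the order given. Of all 13054 tested genes 5863 had a positive log2 fold change, whereas all 15 tested endothelial markers had a negative one. None of these markers passed the threshold alone. Their summed level was lowest in KO 2 and KO 3 as well, and its part in the values of these genes was not tested.

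Among epithelial and matrix genes, Ager (chr17:34597862-34600936), the receptor that marks type I cells, had 40.48, 78.22 and 24.97 CPM in Con and 7.632, 3.13 and 9.99 CPM in KO. It was 6.923-fold lower (log2 fold change -2.79, standard error 1.07), and passed in 4 of the 6 fits. Bgn (chrX:73483602-73495933), the matrix proteoglycan biglycan, had 11.33, 21.96 and 43.35 CPM in Con and 3.71, 2.8 and 0 CPM in KO, a log2 fold change of -3.55 (standard error 1.51). Agpat3 (chr10:78269178-78352489), an acyltransferase of phospholipid synthesis, had 58.05, 29.53 and 45.11 CPM in Con and 18.87, 2.142 and 4.079 CPM in KO, and fell by 2.4 on the log2 scale (standard error 1.1). Without KO 2 these 3 genes were short of the threshold, at -2.4, -3.77 and -1.93.

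Signalling and chromatin genes and a small RNA made up the rest. Dab2ip (chr2:35558266-35730994), a Ras GTPase-activating protein, had 210, 469 and 637 counts in Con against 48, 0 and 0 in KO, and passed in all 6 fits with a library left out. Taok2 (chr7:126865678-126884703), a kinase upstream of stress-activated kinases, had 118.3, 132.9 and 111.2 CPM in Con and 64.77, 31.79 and 9.074 CPM in KO. Vps72 (chr3:95111022-95123051), a subunit of chromatin complexes that deposit histone H2A.Z, had 180.8, 220.6 and 188.8 CPM in Con and 109.8, 74.13 and 65.02 CPM in KO. The spread within Con was small for both genes, and KO 1 lay nearest to Con. Rn4.5s, a short non-coding RNA, had 1287, 1428 and 1792 CPM in Con and 552.4, 708.7 and 893.1 CPM in KO. The log2 fold changes were -1.78 for Taok2 (standard error 0.83), -1.24 for Vps72 (0.49) and -1.07 for Rn4.5s (0.46), and they passed in 1, 2 and 1 of the 6 fits.

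**Figure D2:**
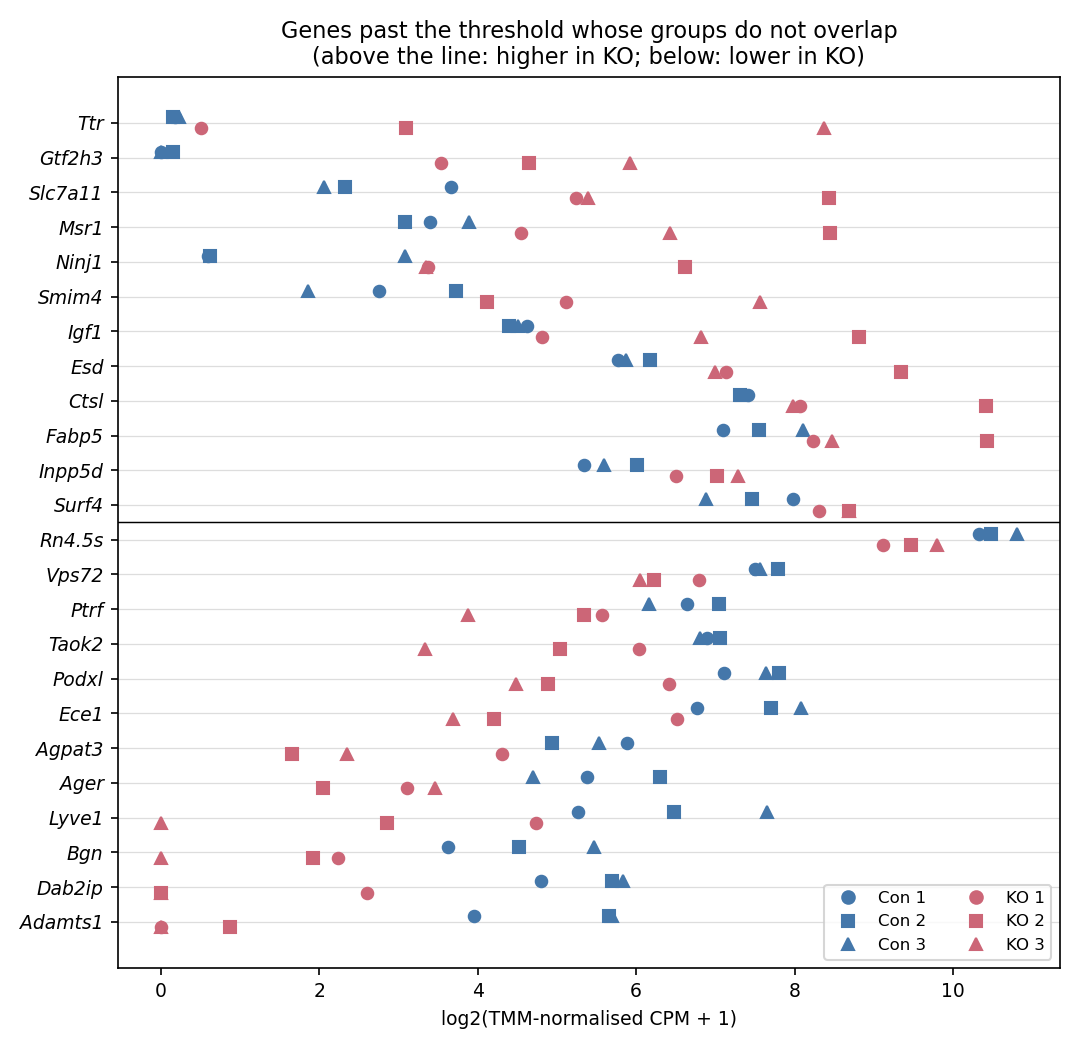
Values of the 24 named genes in each of the 6 libraries as log2 of TMM-normalised CPM plus 1 (horizontal), with Con and KO in different colours, the 12 higher genes above the line and the 12 lower genes below it. The groups do not overlap for any of them because that was required, and single KO points of some higher genes lie far from the others, such as Fabp5 in KO 2 at 1380 CPM against 299.4 and 354.7 CPM in the other KO libraries.

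A stricter contrast is a gene with at least 10 counts in each library of one group and at most 3 in each of the other. Of the 23238 symbols, 11 met this with the counts in KO and 49 with the counts in Con. Libraries also differed in detection. The tested genes at 0 were 9.18%, 19.5% and 34.6% in KO 1 to 3, and 11.5%, 7.52% and 24% in Con 1 to 3. The part of detection in these numbers was not tested. Ripk2, the kinase that relays signals of the NOD1 and NOD2 sensors of bacterial wall fragments, had 0 counts in all Con libraries and 77, 163 and 121 in KO. It was at least 46.47-fold higher against the floor of 3 counts per library, and passed in all 6 fits with a library left out. Flywch2 had 0 counts in all Con libraries and 24, 20 and 386 in KO. Ssbp2, a DNA-binding protein of LIM-domain complexes, had 0, 0 and 1 counts in Con against 65, 82 and 306 in KO. Phf11c had 2, 3 and 0 counts in Con against 16, 136 and 160 in KO. Higher counts in all 3 KO libraries were a condition here, and for all 4 genes the margin was more than 10 counts.

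In the other direction, Ccp110, a protein that caps centrioles, had 70, 58 and 324 counts in Con against 0 in all KO libraries. It was at least 41.13-fold lower, and passed in all 6 fits with a library left out. Sox4, a transcription factor of progenitor cells, had 194, 103 and 78 counts in Con against 1, 2 and 0 in KO, and passed in all 6 of them too. Ly6d, a surface protein of B-cell progenitors and squamous epithelium, had 106, 243 and 95 counts in Con against 1, 0 and 3 in KO. Bcdin3d, an RNA methyltransferase, had 95, 123 and 315 counts in Con against 1, 0 and 0 in KO. Fkbp14, a prolyl isomerase of the endoplasmic reticulum that acts on collagen, had 52, 99 and 330 counts in Con against 3, 0 and 0 in KO, yet with unadjusted p = 0.0517 in edgeR it did not pass the threshold. Con 3 held the largest value for 3 of these 5 genes, and Con 1 for Sox4.

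Pathways were read from lists of genes, by the number of members past the threshold and by the median log2 fold change of the tested members, beside -0.09 over all 13054 tested genes. Of all tested genes, 0.536% passed the threshold upwards and 0.904% downwards. The list values are descriptions without a test. The lists were chosen with earlier results of these data known. Of 56 lists with a tested gene, 29 lay above the median of all genes, and 25 of the 56 stayed on the same side of it under each of the alternative settings tried.

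**Figure D3:**
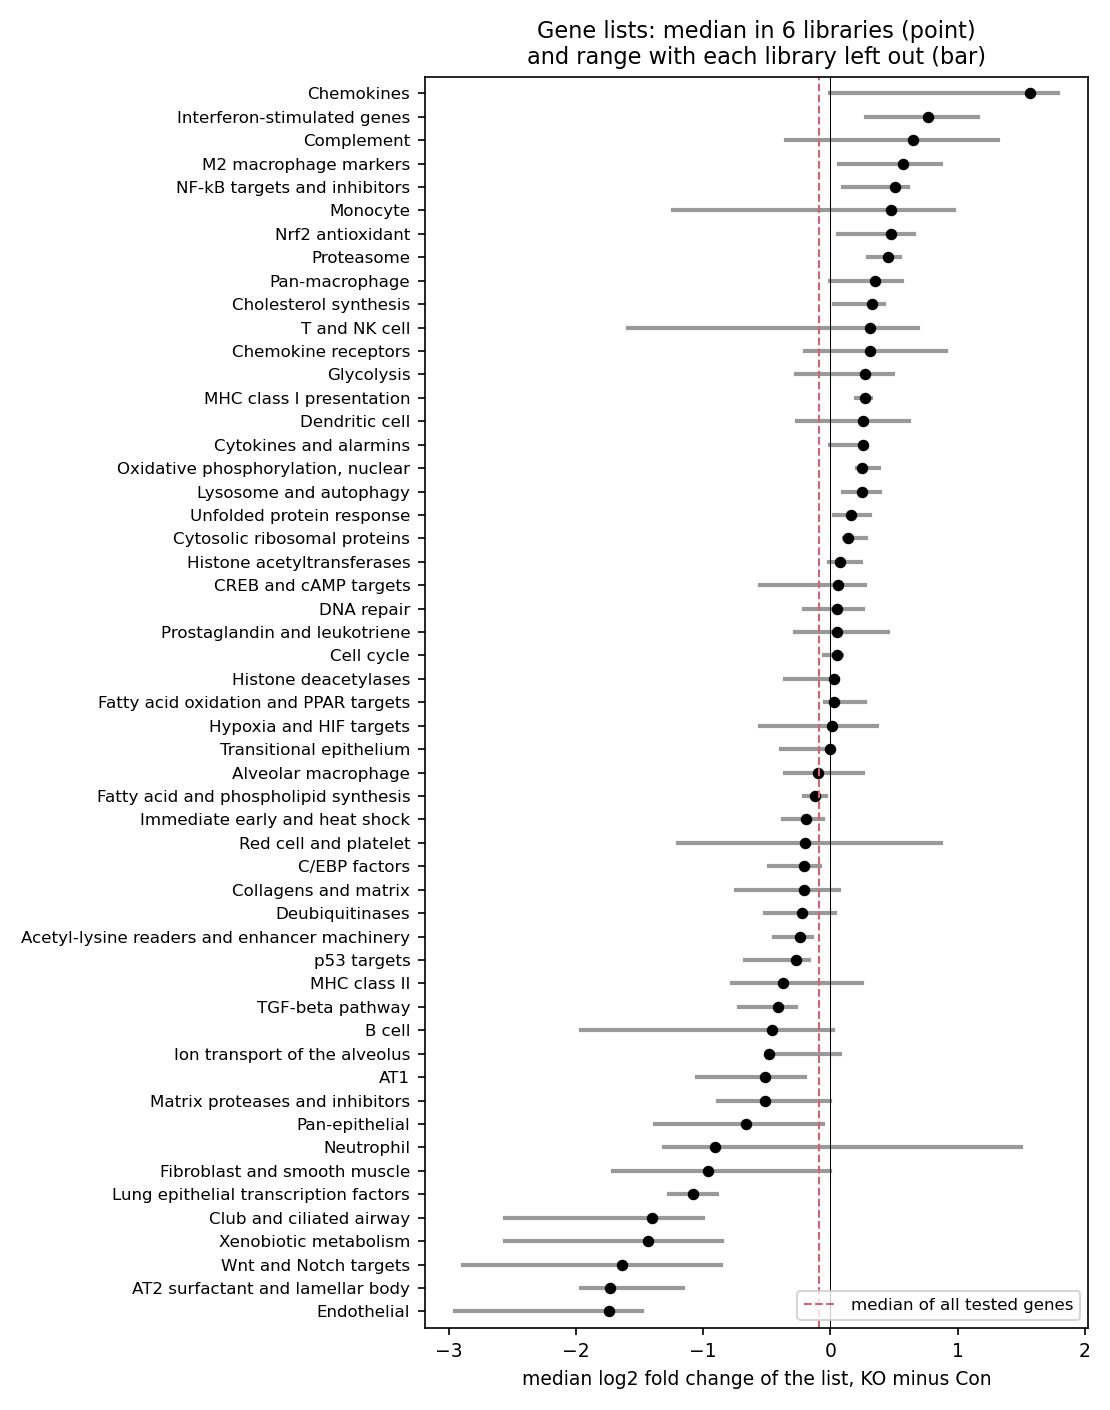
Median log2 fold change, KO against Con, of the tested genes of each list but the basal cell, pluripotency and Y-linked ones (horizontal, log2 units, points), with the range over the fits that leave out 1 of the 6 libraries (bars) and the median of all tested genes (-0.09, dashed line). The endothelial and ATII lists lie lowest, at -1.74 and -1.73, and the chemokine list lies highest at 1.57.

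The ATII list of surfactant, lamellar body and phospholipid genes had 18 tested members with a median of -1.73. One of them, Fabp5, passed upwards and none passed downwards. Sftpc had a log2 fold change of -2.12 (standard error 1.22), Ank3 -5.09 (2.75), and Ctsh, the cathepsin that processes surfactant protein B, -0.6 (0.58). The 3 KO values lay below the 3 Con values for 6 of the 18 members, against 5.82% of all tested genes. The median was -1.26 without KO 2. The type I cell list of 12 tested genes had a median of -0.51, with Ager past the threshold and Emp2, a membrane protein of type I cells, at -1.35 (standard error 0.86). The 18 lung epithelial transcription factors had a median of -1.08, and none passed. Foxp1, a repressor in lung development, stood at 330.5, 453.5 and 238.3 CPM in Con and 278.8, 141.5 and 100.6 CPM in KO. Foxa2, a pioneer factor of the airway and alveolus, was counted in Con 1 (31 counts) and Con 2 (66 counts) and in none of the other 4 libraries. The airway list of 7 tested genes had a median of -1.4 and none past the threshold. Scgb1a1, the secretoglobin of club cells, had 14.77, 64.04 and 99.53 CPM in Con and 14.42, 25.04 and 18.48 CPM in KO.

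Krt8-high transitional epithelium, a state of type II cells on the way to type I, had a list median of 0.0 over 15 genes. Itgb6, the integrin subunit that activates latent TGF-beta, passed downwards, with 0, 65 and 359 counts in Con and none in KO. MHC class II genes, among them the sort antigen Cd74, had a median of -0.37, between -0.77 and 0.25 with single libraries left out. Cd74 stood at 1236, 1593 and 444.5 CPM in Con and 526.5, 552.2 and 1404 CPM in KO, a log2 fold change of -0.4 (standard error 0.61). The groups overlapped. H2-Eb2 passed downwards on 49 and 115 counts in Con 2 and Con 3 and 0 elsewhere.

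The endothelial list of 15 tested genes had a median of -1.74, and -1.48 without KO 2. Kdr, the main VEGF receptor, stood at 67.34, 269.9 and 182.4 CPM in Con and 110.5, 9.884 and 34.88 CPM in KO. Calcrl, the adrenomedullin receptor, stood at 200.1, 314.1 and 363.3 CPM in Con and 181.2, 17.13 and 88.99 CPM in KO. KO 1 lay inside the Con range for Kdr and just below it for Calcrl. Of the 29 tested genes of the TGF-beta pathway 0 passed, and their median was -0.41. KO values lay all below Con for 6 of the 29, against 5.82% of all tested genes. Acvr1, a type I receptor of the family, had 46.46, 37.86 and 53.55 CPM in Con and 23.11, 7.742 and 10.07 CPM in KO. Targets of Wnt and Notch signalling had a median of -1.64 over 19 genes and none past the threshold. Axin2, the feedback inhibitor that Wnt induces, had 0.8911, 8.871 and 19.08 CPM in Con and 0.106, 0 and 0 CPM in KO, and unadjusted p = 0.0518 in edgeR.

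Chemokines were the list with the highest median, 1.57 over 27 tested ligands, and it was 0.0 without KO 2. Ccl7, Ccl8 and Cxcl13 passed upwards, each counted in 1 or 2 KO libraries. They were 3 of 27 ligands, against 0.536% of all tested genes. Ccl7, a ligand of the monocyte receptor CCR2, had 345 counts in KO 2 and 0 in the other 5 libraries. Ccl8 had 152 counts in KO 3 and 0 elsewhere. Cxcl13, which attracts B cells, had 14 counts in KO 1, 69 in KO 2 and 0 elsewhere. Ccl2, the main CCR2 ligand, had 26.1, 29.32 and 5.451 CPM in Con and 37.95, 465.4 and 0 CPM in KO, with a log2 fold change of 3.05 (standard error 1.97) that was -0.08 without KO 2. Ccl12, its neighbour on chromosome 11, had 4, 0 and 0 counts in Con against 83, 32 and 0 in KO. KO 3 had none of Ccl2, Ccl7 and Ccl12. The most abundant chemokine, Ccl6, stood at 3914, 2911 and 10140 CPM in Con and 5375, 1774 and 4520 CPM in KO, with overlapping groups. Of the 18 receptors tested, Ackr3, which scavenges Cxcl12, passed downwards with 1, 146 and 205 counts in Con against 1, 0 and 0 in KO.

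Interferon-stimulated genes had a median of 0.77 over 32 genes, 27 of them above the median of all genes, and 0.28 without KO 2. None passed. Irf9, the DNA-binding part of the interferon-stimulated gene factor, had 18.71, 42.19 and 36.05 CPM in Con and 43.88, 145.1 and 85.24 CPM in KO, with unadjusted p = 0.0523 in edgeR. Its groups did not overlap, with KO 1 close to Con 2. MHC class I genes had a median of 0.27, of which B2m, the light chain, stood at 5045, 4317 and 3509 CPM in Con and 4186, 9722 and 6079 CPM in KO. NF-kB subunits, targets and inhibitors had a median of 0.51, or 0.44 with genes that had no count in one group set to their bound, the only list median given here that this moved. Vcam1, the adhesion molecule that NF-kB induces in endothelium, passed downwards with 0, 71 and 475 counts in Con against 0 in all KO libraries. Nfkbia, the inhibitor, had 668.7, 1055 and 1528 CPM in Con and 990.3, 3135 and 674.5 CPM in KO.

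Macrophage genes differed widely between single KO libraries. In the general macrophage list 3 of 18 tested genes passed upwards, Spp1, C1qa and Msr1, against 0.536% of all tested genes. Spp1, the secreted matrix protein osteopontin, had 108.1, 126.5 and 297.5 CPM in Con and 107.9, 9955 and 173.1 CPM in KO. C1qa, the A chain of complement C1q, had 10.18, 23.58 and 0 CPM in Con and 8.48, 681.3 and 110.9 CPM in KO. Both overlapped between the groups, and Spp1 had a log2 fold change of 4.27 (standard error 1.62) with KO 2 and -0.3 without it. C1qa had 4.57 (1.82) with KO 2 and 2.46 without it, no longer past the threshold. Arg1, the arginase of alternatively activated macrophages, had 47, 0 and 0 counts in Con against 45, 8212 and 0 in KO, and its log2 fold change of 7.84 was 0.27 without KO 2. Mrc1, which encodes the mannose receptor CD206, had 1175, 1012 and 1616 CPM in Con and 1411, 624.8 and 2053 CPM in KO, a log2 fold change of 0.1 (standard error 0.6). The list of alternative activation had a median of 0.57, and 0.07 without KO 2. Ptgs2, which encodes COX-2, had 71 counts in KO 2 and 0 elsewhere. Chil3, a chitinase-like protein of alveolar macrophages, had 5267, 5185 and 14110 CPM in Con and 10590, 5387 and 27480 CPM in KO.

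The oxidative stress list of Nrf2 targets had a median of 0.48 over 26 genes, and 0.06 without KO 2. Hmox1, which degrades heme, passed upwards with 35.01, 32.24 and 171.6 CPM in Con and 73.14, 3739 and 248.4 CPM in KO. Its log2 fold change was 4.09 (standard error 1.4), and 1.05 without KO 2. Slc7a11 passed upwards too, and Gsta4 downwards on 72 counts in Con 1 alone. The lysosome list had a median of 0.25 over 36 genes. It was 0.1 without KO 2. Ctsl passed, and 6 of the 36 members had all KO values above Con, against 3.26% of all tested genes. Complement genes had a median of 0.65, and -0.35 without KO 2. C1qa and C3ar1 passed upwards, 2 of 19 tested members against 0.536% of all tested genes. The log2 fold change of C3ar1 was 6.09, and 2.05 without KO 2.

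Proteasome subunits had a median of 0.45 over 33 genes, and 0.3 without KO 2. None passed, but 7 of the 33 had KO values all above Con, against 3.26% of all tested genes, and 1 all below. Their summed level was 3280, 3091 and 2949 CPM in Con and 3625, 4930 and 3855 CPM in KO, so that the groups did not overlap. Psmd1, a scaffold of the regulatory cap, had 116.2, 73.89 and 111.8 CPM in Con and 151.2, 177.6 and 200.3 CPM in KO. Psma6, a subunit of the outer ring, had 208.9, 198.7 and 162 CPM in Con and 248.2, 460.3 and 288.9 CPM in KO. Nuclear-encoded subunits of the respiratory chain had a median of 0.25 over 76 genes, with 10 above Con and 0 below in all KO libraries, against 3.26% and 5.82% of all tested genes. Ndufa8, of complex I, had 63.52, 61.99 and 70.25 CPM in Con and 144.1, 128.2 and 147.9 CPM in KO, with little spread in either group and unadjusted p = 0.0508 in edgeR. Cytosolic ribosomal proteins had a median of 0.14 over 79 genes, 73 of them above the median of all genes, and none passed. Rpl41 had 516.3, 472.3 and 638.3 CPM in Con and 737.1, 767.8 and 877.3 CPM in KO.

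In lipid and sugar metabolism few genes passed. The cholesterol synthesis list had a median of 0.33 over 23 genes, which was 0.03 without KO 2 and 0.09 without Con 1. Mvk, Fdft1 and Sc5d were above Con in all KO libraries, 3 of 23 genes against 3.26% of all tested ones. Fdft1, squalene synthase, had 36.53, 44.79 and 35.08 CPM in Con and 56.5, 82.86 and 79.5 CPM in KO. Fatty acid and phospholipid synthesis, which supplies surfactant, had a median of -0.12 over 28 genes, and fatty acid oxidation 0.03 over 30. Glycolysis had a median of 0.27, which was -0.27 without KO 2, with Ldhb and Pfkm past the threshold downwards, Pfkm on 78 counts in Con 1 alone. Drug-handling enzymes had a median of -1.43 over 15 genes, and Sult1a1, a sulfotransferase, passed downwards on 9 and 165 counts in Con 2 and Con 3.

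Matrix genes showed no common direction. The collagen and glycoprotein list had a median of -0.21 over 44 genes, between -0.74 and 0.07 with single libraries left out, with Spp1 past the threshold upwards and Bgn downwards. Col1a1, the chain of type I collagen, ranged from 10.49 to 141.6 CPM in Con and from 3.604 to 201.9 CPM in KO. Fn1, fibronectin, had 363.2, 260 and 395.8 CPM in Con and 409.1, 1274 and 465.6 CPM in KO, with KO values all above Con (log2 fold change 1.08, standard error 0.58). Among proteases Mmp12, the macrophage elastase, and Adam8 passed upwards, both highest in KO 2 (log2 fold changes 4.32 and 4.72, and 2.44 and 3.08 without it), and Adamts1 downwards.

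The genes of the acetylation machinery were close to the median of all genes. The 17 acetyltransferases, p300 and CBP included, had a median of 0.08, the 17 deacetylases 0.03, and the 23 acetyl-lysine readers and enhancer cofactors -0.24. None of them passed. Hdac7, a class IIa deacetylase, had 187.6, 261.8 and 175.8 CPM in Con and 85.33, 130.3 and 95.82 CPM in KO. Arid1a, the large subunit of the BAF remodeller, had 168.8, 183.2 and 134.9 CPM in Con and 88.62, 87.97 and 110.1 CPM in KO. Brd3, a reader of the BET family, had 112.7, 130.8 and 95.66 CPM in Con and 64.87, 35.42 and 71.59 CPM in KO. Smarcb1, a core subunit of BAF, had 5.219, 25.1 and 1.671 CPM in Con and 82.68, 30.48 and 59.52 CPM in KO. The groups did not overlap for these 4 genes. Their log2 fold changes were -1.01 (standard error 0.58), -0.76 (0.52), -0.98 (0.6) and 2.43 (1.64). Over the 3 lists in the order given, KO values lay all below Con for 0, 2 and 3 members, against 5.82% of all tested genes. They lay all above Con for 0, 0 and 1 members, against 3.26%.

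In the lists of CREB, HIF and p53 targets no gene passed the threshold. The median was 0.06 for 17 CREB targets, 0.01 for 22 HIF targets and -0.27 for 23 p53 targets, and with single libraries left out it ran from -0.55 to 0.27, from -0.55 to 0.37 and from -0.67 to -0.17. Fos had 1341, 1038 and 824.5 CPM in Con and 1628, 948 and 1102 CPM in KO, and Cdkn1a, the p53 target p21, had 445.3, 467.9 and 213.9 CPM in Con and 403.9, 249.2 and 224.9 CPM in KO. Of the C/EBP factors, Cebpb had 691.9, 491.7 and 440.5 CPM in Con and 917.6, 765.2 and 872.5 CPM in KO, all above Con, with a log2 fold change of 0.65 (standard error 0.85). Cebpd had 104.1, 151.5 and 208.6 CPM in Con and 117.2, 37.39 and 72.42 CPM in KO. The 18 deubiquitinases had a median of -0.22 and none past the threshold, and Uchl3 among them had 28.77, 27.26 and 76.67 CPM in Con and 26.39, 51.56 and 28.8 CPM in KO. Cell cycle and DNA repair lists had medians of 0.05 each, with 0 of 40 and 0 of 38 genes past the threshold. The DNA repair list summed to 1492, 1234 and 1237 CPM in Con and 1179, 1175 and 1047 CPM in KO, without overlap.

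The same genotypes were also compared in mice given bleomycin (KOBLM against BLM, 3 libraries each), and the question was whether the baseline differences were also found there. The comparisons share no library, but BLM 3, with 6847 genes counted, had the fewest of all 12 libraries. It also stood apart in its marker lists, for a reason that was not tested. The pluripotency and germ line list summed to 2747 CPM in BLM 3 and to 495.5 to 854.3 CPM in the other libraries. For the alveolar macrophage list these sums were 872.1 CPM and 6726 to 44200 CPM. Of the 70 genes higher in KO without injury, 39 had the same sign after bleomycin (55.7%, against 52.9% of all tested genes), and of the 118 lower genes 71 did (60.2%, against 46.9%). Without BLM 3 these were 29 of 70 (41.4%, against 46.5%) and 70 of 118 (59.3%, against 52.5%). After bleomycin 2 of the 70 passed the threshold upwards and 3 downwards, and 6 of the 118 passed downwards and 4 upwards, beside 1.39% (upwards) and 1.78% (downwards) of all tested genes. As a test of the difference itself, the interaction of genotype and bleomycin had an unadjusted p under 0.05 for 368 genes in edgeR (2.82%) and an adjusted p under 0.05 for 0. Without BLM 3 these were 652 and 0.

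Among the 24 named genes, 6 of the 12 higher and 9 of the 12 lower had the same sign after bleomycin. Igf1 had a log2 fold change of 3.17 without and 2.54 with bleomycin, and Fabp5 1.76 and 1.2. For Msr1 it was 3.88 and -1.23 (interaction unadjusted p = 0.0408 in edgeR), and for Ctsl 1.94 and -0.88 (0.0281). Of the lower genes, Ager was at -2.79 and -1.82 and Bgn at -3.55 and -2.49, whereas Adamts1 was at -7.2 and -0.28 (interaction unadjusted p = 0.00447 in edgeR), Ece1 at -2.29 and 0.35 (0.0423) and Ptrf at -1.59 and 0.83 (0.0217). All of these interactions had an adjusted p of 1.0 in edgeR. The unadjusted interaction p was under 0.05 for 7 of the 12 higher and 3 of the 12 lower genes, and smallest for Ttr (0.000357 in edgeR). The interaction contains the KO minus Con difference by which these 24 genes were chosen. The choice therefore favours small interaction p values, and they are no separate evidence of a difference. By lists, the endothelial median was -1.74 without and 1.21 with bleomycin (0.62 without BLM 3), the ATII median -1.73 and -0.01, and the chemokine median 1.57 and -0.09. The lung epithelial transcription factors had negative medians in both, -1.08 and -1.71. The proteasome list was at 0.45 without and -0.54 with bleomycin, and the ribosomal proteins at 0.14 and -0.48.

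**Figure D4:**
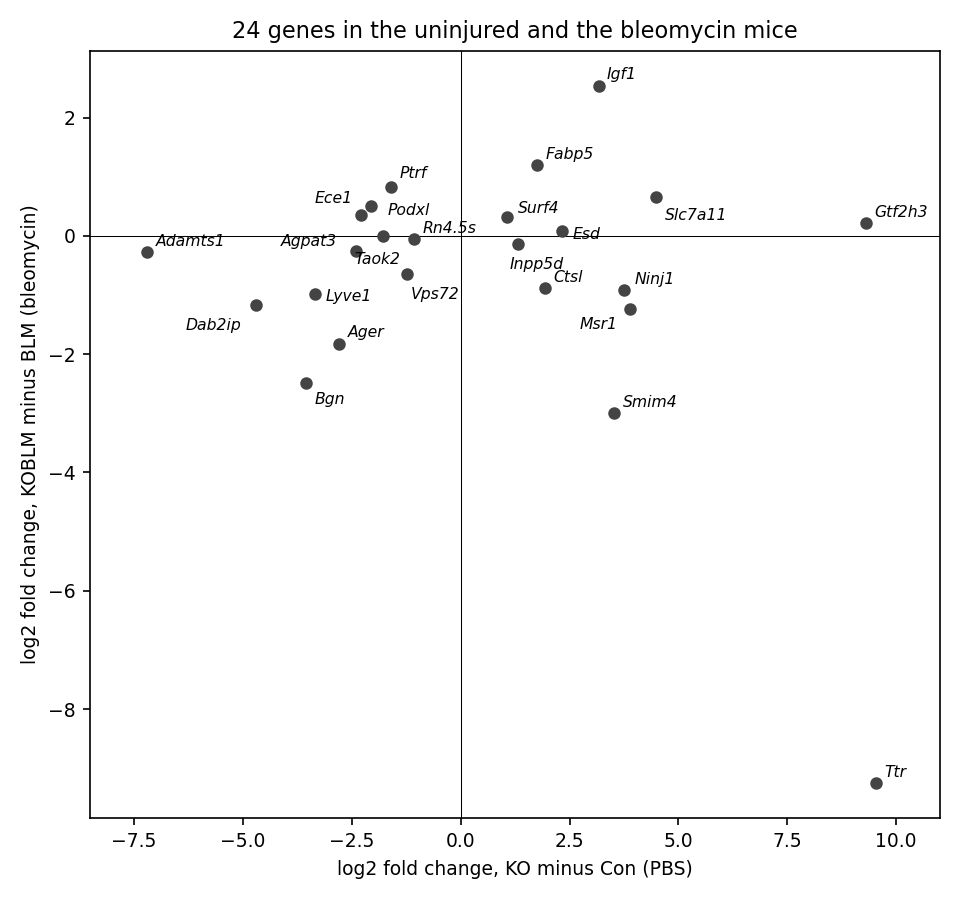
Log2 fold change of KO against Con in PBS mice (horizontal) and of KOBLM against BLM in bleomycin mice (vertical) for the 24 named genes, 1 point per gene. Igf1 lies at 3.17 and 2.54, in the corner of genes higher in both, while Msr1 lies at 3.88 and -1.23 and Ptrf at -1.59 and 0.83, in the corners of opposite signs.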

How the data were processed

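RNA of sorted ATII cells was sequenced as single-end 75 nt reads from QuantSeq 3′ libraries. The authors deposited raw read counts per gene symbol for each library, without normalisation. The submitters' processing notes name Bowtie2, edgeR and mm10, with no versions or roles. Counts of 35 repeated symbols (79 entries) were summed. How reads that match several places were counted, and whether strand was used, is not given in the sources used here, so genes with near-identical copies (Fabp5, Rpl41, Ear1, Rn45s, Rn4.5s) and overlapping genes are uncertain. Groups and replicate numbers came from the sample labels.

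A low-count filter by group (filterByExpr of edgeR 4.0.16, at least 10 counts, total of at least 15) was applied, and counts were scaled by TMM (factors 0.835 to 1.263) and fitted with the quasi-likelihood model of the 4 groups and 12 libraries (8 residual degrees of freedom). CPM are relative to the TMM-scaled library. Tests were two-sided. Each edgeR p sets a difference against the spread between single mice. In the main fit this spread was estimated over all 4 groups, bleomycin libraries included, and partly shared across genes. The exact permutation test of 3 against 3 mice cannot give a p under 0.1. The detection floor of 3 counts covers counting error alone, because no molecular identifiers were used and reads are not separate molecules. Where a group had no count, the fold is a lower bound against this floor.

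The alternatives were other scalings, no filter, the 6 libraries alone, a replicate block, the omission of single libraries, DESeq2 1.42.0, and voom of limma 3.58.1. The edgeR steps were tested on simulated data. Members and lists were chosen with earlier results of these data known. Named genes were the 12 per direction with the smallest p among those past the threshold that meet the criteria in the text. Symbols of the form Gm plus digits or ending in Rik were excluded from these. Genes the study's text turns on and the 10 most abundant genes were also named. Each list gave up to 2 of its most abundant members and up to 3 with the smallest p. Up to 5 per direction had at least 10 counts in each library of one group and at most 3 in each of the other. Fixed defining markers are also given. Members called past the threshold in a list and those singled out by non-overlap beyond this rule were chosen after their values were seen. Positions come from GENCODE M21 on GRCm38. R 4.3.3 and Python 3.11.15 were used.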

Additional observations from a re-analysis of the deposited data

Results flagged for a closer look

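Genes named in the text were screened for groups that do not overlap and that differ in opposite directions without and with bleomycin. This screen favours small interaction p values, and 3 genes met it, Smim4 and Ly6d, described above, and Ogg1. In each, every KO library moved away from Con in one direction and every KOBLM library away from BLM in the other. Smim4 ranged from 16.3 to 189 CPM in KO and 2.64 to 12.2 CPM in Con, and from 0.0944 to 23.4 CPM in KOBLM and 104 to 120 CPM in BLM. Its log2 fold changes were 3.53 and -3.0, a difference of 6.54 (interaction unadjusted p = 0.00465 in edgeR, adjusted p = 1.0). Ly6d ranged from 0 to 0.25 CPM in KO and 8.35 to 26.3 CPM in Con, and from 2.42 to 20 CPM in KOBLM, with 0 in all BLM libraries. Its difference was -16.84 on the log2 scale, a size that depends on the fit because BLM had no count (interaction unadjusted p = 0.000973 in edgeR, adjusted p = 1.0). Ogg1, a glycosylase that removes oxidised guanine, ranged from 143 to 333 CPM in KO and 382 to 553 CPM in Con, and from 210 to 336 CPM in KOBLM and 8.16 to 175 CPM in BLM. Its difference was -2.2 (interaction unadjusted p = 0.0592 in edgeR, adjusted p = 1.0).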

How the results depend on the processing

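The number of genes past the threshold, 188, was 100 with a replicate block, 374 with DESeq2, 354 without BLM 3 in the fit, 394 with limma-voom and 0 at an adjusted p under 0.05 in edgeR, and between 88 (KO 2 left out) and 446 (KO 1 left out) with single Con or KO libraries omitted. With KO 2 left out, 19 of the 70 higher and 18 of the 118 lower genes passed again, and with KO 3 left out 51 and 20. Of the 52 named genes past the threshold, 6 passed under each of 13 alternatives (limma-voom was not among them), namely Adamts1, Dab2ip, Gtf2h3, Ripk2, Sox4 and Vcam1, and 12 passed with KO 2 left out. With single libraries omitted, Spp1 ran from -0.3 (without KO 2) to 4.86 on the log2 scale, and Gdf3, a gene of early embryos with 1 count in Con and 190 in KO 2, from -1.77 (without KO 2) to 9.54. The cause of these differences was not tested. Same-numbered Con and KO libraries deviated together at correlations of 0.046, 0.038 and 0.096, so the numbers were not taken to pair the mice. Precision was limited by a coefficient of variation between mice of one group of 1.44 in the fit of all 12 libraries. It was 1.15 in the fit of the 6 Con and KO libraries alone. Detection limited precision too, since 4517 of the tested genes were at 0 in KO 3.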
